A study of Mus musculus with 24 samples.

Results

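The AP-1 family described here is 7 genes: Fos, Fosb, Fosl1 and Fosl2 of the Fos branch and Jun, Junb and Jund of the Jun branch. They were chosen by symbol through the array annotation, and all 7 were found among the 19938 genes measured, each with 1 probe set. They were followed in NIH3T3, an immortalised line of mouse embryonic fibroblasts. All dishes were kept for 96 h in 1 mM difluoromethylornithine (DFMO), which irreversibly blocks ornithine decarboxylase, the first enzyme of polyamine synthesis, and which the submitters describe as arresting growth. In 7 groups the cells then had 10 µM spermidine, a polyamine, for 30, 60 or 120 min or for 240, 360, 480 or 600 min, in medium with 1 mM aminoguanidine against amine oxidases. The 0 min group had DFMO without spermidine, and the labels leave unsaid whether it had aminoguanidine. Each of the 8 groups had 3 biological replicates on Affymetrix MoGene 1.0 ST arrays, 24 in all. Dishes held in DFMO without spermidine for the later times are not among the 24 arrays. Time in culture and handling therefore cannot be told apart from spermidine in any comparison below, and 1 cell line was used throughout. If the 0 min group lacked aminoguanidine, that too cannot be told apart from spermidine in comparisons with 0 min.

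AP-1 is a pair of proteins with basic leucine zippers. Jun proteins pair with each other or with Fos proteins, whereas Fos proteins bind DNA in pairs with Jun. Fos, Fosb, Jun and Junb are immediate early genes: in fibroblasts given serum or growth factors their RNA rises quickly and briefly, without new protein synthesis, through kinase cascades acting on factors already on the promoter. Fosl1 (the Fra-1 gene) and Fosl2 (the Fra-2 gene) tend to follow later and last longer, and Jund is expressed more steadily, also in resting cells. Jun stimulates its own promoter and drives fibroblasts into the cell cycle, an action that Jund opposes.

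The question asked of the family was whether, and when, its RNAs changed once spermidine was given. Of the 7 genes, 3 changed over the 8 times by the F-test of limma, a linear model fitted over all genes, namely Jun, Fosl1 and Fos. A gene is counted as called at a Benjamini-Hochberg adjusted p under 0.05 over all 19938 genes, and 30.9% of all genes were called by this F-test. The adjusted p was 3.05e-08 for Jun, 0.000996 for Fosl1 and 0.00261 for Fos. For Junb it was 0.0906, for Jund 0.121, for Fosb 0.666 and for Fosl2 0.735. These are bulk RNA levels, in which a change in fewer cells and a smaller change in every cell cannot be told apart. All values are RMA values (robust multi-array averages) on the log2 scale, where 1 unit is a doubling. They are suited to comparing 1 gene between arrays. Set beside other genes or the median of all genes, they give only a rough guide to level.

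The arrays fit the label of fibroblasts. All 8 fibroblast markers looked at, Vim and Col1a1 among them, had means from 6.04 to 12.72, against a median of 4.35 over all genes. Of 7 macrophage markers 2 lay above that median (highest Cd14, 4.61), as did 2 of 7 epithelial (highest Krt14, 7.71), 1 of 6 adipocyte (Lpl, 7.13) and 2 of 6 muscle markers (highest Actc1, 4.95). The log2 of the summed level over the 8 times ran from 14.05 to 14.16 for the fibroblast, 6.91 to 6.99 for the macrophage, 8.10 to 8.42 for the epithelial, 7.62 to 7.81 for the adipocyte and 6.82 to 6.89 for the muscle list, whose part in the results was not tested. A pair of arrays lay away from their labelled time on the first principal component over all genes: replicate 3 of 120 min stood at 2.61 against -12.18 and -12.23 for the other 120 min arrays, and replicate 3 of 240 min at -13.23 against 2.07 and 1.49. Both were kept under their labels, and values without them are given where they change a call of the 7 genes. For every gene the 3 replicate numbers had equal means over the 8 times to within 8.75e-05, so an effect of replicate number had been removed before deposit. The p-values of the fit without a replicate block are therefore somewhat too small, and p with the block is given where it ends a call of the 7 genes.

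**Figure D1:**
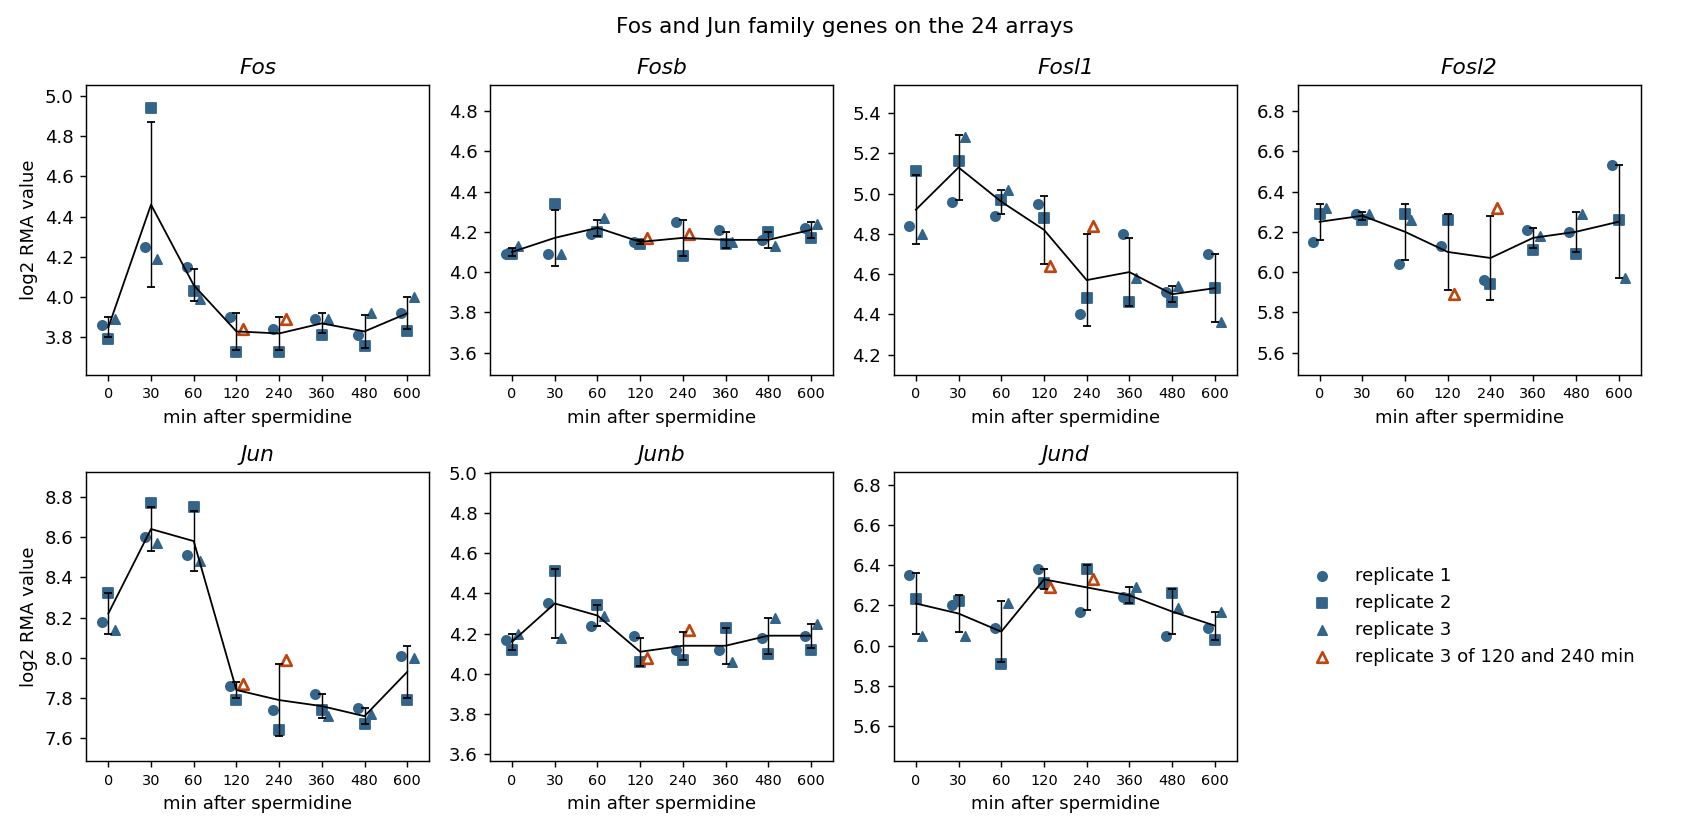
Log2 RMA value (vertical axis, 1.44 units in every panel) of each of the 7 genes on the 24 arrays against minutes after spermidine (horizontal axis, evenly spaced groups). Points are arrays, shaped by replicate number, with replicate 3 of 120 and of 240 min in open orange triangles. The black line joins the means of 3 arrays and the bars are their SD. Jun stands high at 30 and 60 min and low from 120 min on, Fos stands high at 30 min, and Fosl1 declines.

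Jun (Entrez gene 16476, on chromosome 4 from 95049036 to 95052222, minus strand, GRCm38.p6), the gene of c-Jun, varied most within the family. The 250 bases before its annotated start, chr4:95052223-95052472, minus strand, are shown with those of Fos, chr12:85473640-85473889, plus strand, because these genes had the largest differences from 0 min at 30 min in the family. Capitals mark the motifs named in the next paragraph.
Jun: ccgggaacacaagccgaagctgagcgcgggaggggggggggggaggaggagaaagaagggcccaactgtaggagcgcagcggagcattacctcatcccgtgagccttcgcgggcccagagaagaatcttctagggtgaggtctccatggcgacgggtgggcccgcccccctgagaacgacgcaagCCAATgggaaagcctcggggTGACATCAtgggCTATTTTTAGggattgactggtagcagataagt
Fos: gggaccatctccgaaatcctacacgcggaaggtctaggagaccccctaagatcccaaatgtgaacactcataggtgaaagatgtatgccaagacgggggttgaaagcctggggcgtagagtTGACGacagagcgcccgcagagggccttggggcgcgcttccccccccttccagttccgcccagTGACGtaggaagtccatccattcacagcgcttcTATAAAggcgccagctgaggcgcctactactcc

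The sequences are RefSeq's on GRCm38.p6, where 6 of the 7 genes have an entry, and each motif was searched on both strands of the 250 bases before the start. The Jun window holds TGACATCA, a form of the AP-1 site, with its first base 45 bases before the start, a MEF2 motif, CTATTTTTAG, at 33 bases and a CCAAT box at 65 bases. TGACATCA occurred in 2.93% of 32851 such windows, a MEF2 motif in 2.92% and CCAAT in 33.8%. The Fos window holds TGACG, the core of the cyclic AMP response element, at 129 and 66 bases, and the TATA box letters TATAAA at 33 bases. TGACG occurred in 17.8% of windows and in 3 of the 6 of this family (Fos, Fosb and Junb), and TATAAA in 12.4% and only in Fos among the 6. Junb also has a CCAAT. None of the 6 windows held the AP-1 site TGACTCA (4.46% of all windows), the full element TGACGTCA (1.55%), which contains TGACG, or a CArG box (1.47%). Sites farther than 250 bases before the start were not searched, so a motif missing here may lie outside the window. These are matches of letters and show no binding.

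On the 3 arrays of each time, the log2 level of Jun was 8.18, 8.32 and 8.14 before spermidine (0 min), 8.60, 8.77 and 8.57 after 30 min, and 8.51, 8.75 and 8.48 after 60 min. After 120 min it was 7.86, 7.79 and 7.87, after 240 min 7.74, 7.64 and 7.99, and after 360 min 7.82, 7.74 and 7.71. The 480 min arrays read 7.75, 7.67 and 7.72, the 600 min arrays 8.01, 7.79 and 8.00. Every array at 30 and 60 min thus lay above every 0 min array, and every array from 120 min on lay below every 0 min array. The highest 240 min array was replicate 3, one of the pair that stood apart.

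Jun did not pass the test as higher at 30 min (8.64 ± 0.11 at 30 min and 8.22 ± 0.10 at 0 min, SD, n = 3 each; log2 difference 0.43 ± 0.08 SE, 1.35-fold, limma adjusted p = 0.139) or at 60 min (8.58 ± 0.15, difference 0.36, adjusted p = 0.335). Without the pair that stood apart the 30 min difference, still 0.43, had an adjusted p of 0.0493, and of 0.095 with the replicate block as well. Against the early times the later decrease was called. Jun fell by 0.74 ± 0.08 at 120 min relative to 60 min, a 1.67-fold decrease (adjusted p = 0.000194), and by 0.80 ± 0.08 relative to 30 min (adjusted p = 4.96e-05). Both calls were kept whichever of the 6 arrays compared was left out (highest adjusted p 0.00284 and 0.000748), without the pair that stood apart (0.00015 and 4.93e-05), and with the replicate block (0.00103 and 0.000282).

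Relative to 0 min Jun was lower by 0.38 ± 0.08 at 120 min, just short of a call (adjusted p = 0.0518). It fell by 0.43 ± 0.08 at 240 min (adjusted p = 0.00868), 0.46 at 360 min (0.000596), 0.50 ± 0.08 at 480 min (0.000145) and 0.28 ± 0.08 at 600 min (0.0169). Here too p was adjusted within each comparison. The unadjusted limma p was 6.53e-05 for the uncalled 30 min rise. For the called decreases it was 6.92e-05 at 240 min, 3.12e-05 at 360 min, 9.73e-06 at 480 min and 0.00363 at 600 min. The lowest level, at 480 min, was 7.71 ± 0.04, against 8.22 ± 0.10 at 0 min, a 1.42-fold decrease. In order of level the times ran 30, 60, 0, 600, 120, 240, 360 and 480 min. Only the step between 0 and 600 min was called among the 7 neighbouring pairs, and the next step down, of 0.09 between 600 and 120 min, had an adjusted p of 0.506. Jun was 0.22 higher at 600 than at 480 min, with no overlap of the arrays, but this was not called (adjusted p = 0.457). The call at 240 min was lost without replicate 1 (adjusted p = 0.0521) or 2 (0.0659) of 240 min, and in a fit to the arrays of 0 and 240 min only (0.108). That at 600 min was lost without replicate 2 of 0 min (-0.23, 0.0959) or of 600 min (-0.21, 0.115), while those at 360 and 480 min were kept without any 1 of their arrays.

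Junb (gene 16477, chromosome 8 from 84976909 to 84978748), whose protein is the weaker activator and often restrains c-Jun, stayed within a narrow range. Its 3 arrays stood at 4.35, 4.51 and 4.18 at 30 min, against 4.17, 4.12 and 4.20 at 0 min. The 30 min array that was highest for Junb, replicate 2, was also the highest 30 min array for Fos, Fosb and Jun. From 120 min on all 15 values lay between 4.06 and 4.28. The difference at 30 min was 0.19 ± 0.07, with an adjusted p of 0.802. Between later times Junb was called in 1 of 28 pairs, 0.21 lower at 360 min (4.12, 4.23 and 4.06) than at 30 min (adjusted p = 0.0328). Those arrays overlap, and the call ended with the replicate block (0.0532) and without replicate 1 (0.0778) or 2 (0.232, difference -0.13) of 30 min or replicate 1 (0.0884) or 3 (0.148) of 360 min. Without the pair that stood apart Junb was called at 240 against 30 min as well (-0.25, adjusted p = 0.042, against -0.21 and 0.0724 with all arrays).

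Jund (gene 16478, chromosome 8 from 70697739 to 70700616) was lowest at 60 min (6.09, 5.91 and 6.21) and highest at 120 min (6.38, 6.31 and 6.29), against 6.35, 6.23 and 6.05 at 0 min. No time was called against 0 min, with differences from -0.14 at 60 min to 0.12 at 120 min. The 95% intervals at these times ran from -0.31 to 0.03 and from -0.05 to 0.28. Of the 28 pairs of times 1 was called, 600 against 120 min, with 6.09, 6.03 and 6.17 at 600 min, a decrease of 0.23 ± 0.08 (adjusted p = 0.0428). This call ended with the block (0.0661), without the pair that stood apart (0.059), and without any 1 of the 6 arrays other than replicate 3 of 600 min (0.0561 to 0.154).

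Fos (gene 14281, chromosome 12 from 85473890 to 85477274, plus strand), the gene of c-Fos and a textbook immediate early gene, had its highest mean at 30 min. Its arrays read 3.86, 3.79 and 3.89 before spermidine, 4.25, 4.94 and 4.19 after 30 min and 4.15, 4.03 and 3.99 after 60 min. From 120 to 600 min all 15 arrays lay between 3.73 and 4.00. All 30 and 60 min arrays lay above all 0 min arrays, but replicate 2 of 30 min lay far above both others of its time. Fos averaged 4.46 ± 0.41 at 30 min and 3.85 ± 0.05 at 0 min (SD, n = 3 each), a difference of 0.61 ± 0.12 (SE, 1.53-fold) that was not called (adjusted p = 0.139). Leaving out the high replicate 2 of 30 min gave 0.37 (adjusted p = 0.118), and leaving out replicate 3 gave 0.75, which was called (0.0243). A limma fit to the arrays of 0 and 30 min only gave an adjusted p of 0.576. Egr1, a zinc finger gene of the same early class, was called at 30 min (2.03 ± 0.32, adjusted p = 0.0358) and at 60 min (2.35 ± 0.32, 0.00473). With the replicate block it was called at 60 min (0.018) but not at 30 min (0.112).

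The return of Fos from its peak was called. Because p was adjusted within each comparison, a call does not rank the rise and the fall. The unadjusted limma p of the uncalled 30 min rise was 7.03e-05. That was smaller than for the decreases from 30 min at 360 min (9.62e-05) and 600 min (0.000271). It was larger than for those at 120, 240 and 480 min (4.32e-05 to 5.22e-05). Relative to 30 min, Fos fell by 0.63 ± 0.12 at 120 min (3.83 ± 0.09 at 120 min, a 1.55-fold decrease, adjusted p = 0.00982), by 0.64 at 240 min (0.00329), 0.60 at 360 min (0.00116), 0.63 at 480 min (0.000502) and 0.54 at 600 min (0.00175). These were the only 5 of its 28 pairs called, and they share the 30 min arrays. They held whichever of the 6 arrays compared was left out (highest adjusted p 0.0387, at 120 min without replicate 3 of 120 min) and with the block. Their size leaned on replicate 2 of 30 min, without which the decreases were 0.40, 0.40, 0.36, 0.39 and 0.30 in the same order. The SE of these decreases comes from 1 spread shared by all 8 times. The SD of Fos was 0.41 at 30 min and at most 0.09 at every other time. Fits to 2 times only were run against 0 min, not for these pairs. The step of 0.40 between 30 and 60 min was not called (adjusted p = 0.569), nor was any other neighbouring pair in the order of levels 30, 60, 600, 360, 0, 480, 120 and 240 min. From 120 min on Fos lay within 0.07 of its 0 min mean, whereas Jun lay below its own, a contrast that was not tested between the genes.

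Fosb (gene 14282, chromosome 7 from 19302696 to 19310118), which like Fos encodes an activating partner of Jun, was lowest at 0 min (4.09, 4.09 and 4.13). After 30 min it read 4.09, 4.34 and 4.09, and after 60 min, its highest mean, 4.19, 4.20 and 4.27. Afterwards all 15 values lay between 4.08 and 4.25. The 60 min arrays lay above all 0 min arrays, but the difference of 0.12 ± 0.05 had an adjusted p of 0.963, and none of its 28 pairs of times was called. The interval at 30 min ran from -0.04 to 0.18. The deposited table holds no detection calls, so whether the probe sets of Fos, Fosb and Junb were above background at any time is not known.

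Fosl1 (gene 14283, chromosome 19 from 5447698 to 5455938), whose product Fra-1 pairs with Jun proteins and is abundant in motile and transformed fibroblasts, declined. The 3 arrays read 4.84, 5.11 and 4.80 before spermidine, 4.96, 5.16 and 5.28 after 30 min, and 4.89, 4.97 and 5.02 after 60 min. The 120 min arrays read 4.95, 4.88 and 4.64, those of 240 min 4.40, 4.48 and 4.84, and those of 360 min 4.80, 4.46 and 4.58. The last times gave 4.51, 4.46 and 4.54 (480 min) and 4.70, 4.53 and 4.36 (600 min). The arrays at 30, 60 and 120 min overlap those at 0 min, while all arrays at 480 and 600 min lie below every array at 0, 30 and 60 min. In the pair that stood apart, the 120 min array was the lowest of its time and the 240 min array the highest.

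Relative to 0 min, Fosl1 fell by 0.42 ± 0.12 at 480 min (4.50 ± 0.04, against 4.92 ± 0.17 at 0 min, a 1.33-fold decrease, adjusted p = 0.0128) and by 0.38 ± 0.12 at 600 min (adjusted p = 0.0201). It was lower by 0.35 at 240 min (0.131) and by 0.31 at 360 min (0.0859), short of a call. Without the pair that stood apart these times were called too, at -0.48 (adjusted p = 0.00823) and -0.31 (0.0312), also with the block (0.018 and 0.0498). The calls leaned on single arrays. Without replicate 2 of 0 min, the highest of its time, the differences at 480 and 600 min were -0.32 (0.09) and -0.29 (0.127). The 600 min call was also lost without replicate 2 (0.0509) or 3 (-0.30, 0.113) of 600 min, and the 360 min difference was called without replicate 1 of 360 min (-0.40, 0.0406).

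Measured from 30 min, its highest time, Fosl1 fell by 0.56 ± 0.12 at 240 min (adjusted p = 0.0065), 0.52 at 360 min (0.00291), 0.63 ± 0.12 at 480 min (0.000378) and 0.60 at 600 min (0.000559). From 60 min the decreases were 0.35 at 360 min (0.0456), 0.46 at 480 min (0.00647) and 0.42 at 600 min (0.00998). With the 2 against 0 min this made 9 of 28 pairs, against 15 without the pair that stood apart. The 4 gained there beside those against 0 min were 240 against 60 min (-0.52, adjusted p = 0.00386) and, against 120 min, 240 min (-0.48, 0.0387), 480 min (-0.42, 0.00877) and 600 min (-0.38, 0.0138). With all arrays these 4 had adjusted p from 0.065 to 0.527. The 240 against 30 min call ended without replicate 1 of 240 min (0.0511), and that of 600 against 60 min without replicate 3 of 600 min (0.0657). That of 360 against 60 min ended with the block (0.0695) and without any 1 array other than replicate 1 of 360 min (0.0643 to 0.20). In the order of levels, 30, 60, 0, 120, 360, 240, 600 and 480 min, no neighbouring pair was called, the largest step being 0.21 between 120 and 360 min (0.318).

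Fosl2 (gene 14284, chromosome 5 from 32136472 to 32157840), which encodes Fra-2, the closest relative of Fra-1 in the family, showed no called difference in any of the 28 pairs. It stood at 6.29, 6.26 and 6.29 at 30 min, against 6.15, 6.29 and 6.32 at 0 min. Its means ran from 6.07 at 240 min to 6.28 at 30 min, and its arrays at 600 min spread from 5.97 to 6.53. Replicate 3 of 120 min (5.89, against 6.13 and 6.26) and of 240 min (6.32, against 5.96 and 5.94) again lay away from the others of their time. Without that pair the 240 min difference was -0.30 in place of -0.18, with an adjusted p of 0.114.

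**Figure D2:**
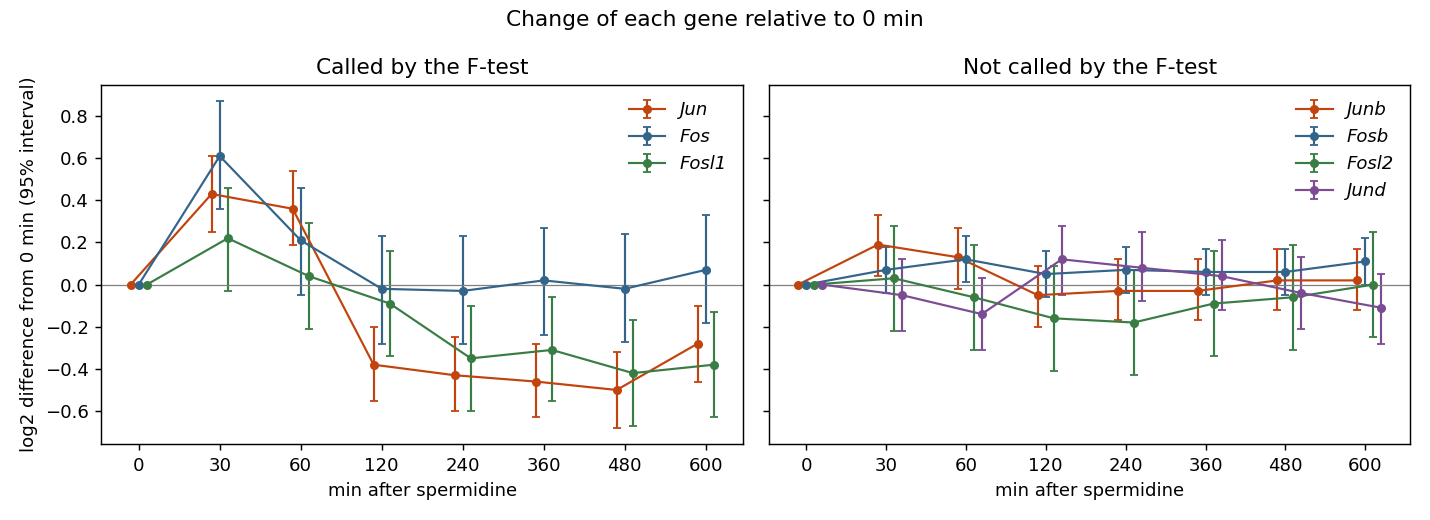
Log2 difference from 0 min (vertical axis) with 95% intervals from the limma fit, against minutes after spermidine (horizontal axis), for the 3 genes called by the F-test on the left and the 4 not called on the right. At 0 min the difference is 0 by definition. Jun runs from 0.43 at 30 min to -0.50 at 480 min, Fos peaks at 0.61 and returns to within 0.07 of 0, and Fosl1 reaches -0.42 at 480 min.

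Counted over the 7 genes, limma called 0 at 30, 60 and 120 min against 0 min in either direction, with 3, 2 and 1 of them at an unadjusted p under 0.05. Over all genes, 0.015% were called higher and 0% lower at 30 min. The shares were 0.01% higher and 0.015% lower at 60 min, then 0.0451% higher and 0.426% lower at 120 min. At 240 min 1 of 7 was called lower, Jun, where 2.69% of all genes were called lower and 0.366% higher. At 360 min 1 of 7 was lower (10.5% of all genes lower, 8.47% higher), at 480 min 2 of 7 (14.5% and 9.73%) and at 600 min 2 of 7 (15.7% and 11.2%). No gene of the family was called higher at any time against 0 min. The median difference of the 7 was 0.19 at 30 min and 0.12 at 60 min, against -0.01 and 0 over all genes, and -0.05 to 0 from 120 min on, against -0.01 to 0.01 over all genes. The 30 min median was 0.10 without replicate 2 of 30 min, the array high for Fos, Fosb, Jun and Junb.

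Against 30 min, limma called 0 of 7 lower at 60 min, where 0.0351% of all genes were; Fos had an unadjusted p of 0.00364 there. Called lower were 2 at 120 min (1.25% of all genes), 3 at 240 min (5.32%), 4 at 360 min (11.5%), 3 at 480 min (15.2%) and 3 at 600 min (16.4%). Against 60 min 1 was called lower at 120 min (0.306%) and 1 at 240 min (2.48%), in both cases Jun. Jun and Fosl1, 2 of 7, were called lower than at 60 min at 360 min (9.96%), 480 min (13.8%) and 600 min (14.8%). The 1 gene lower at 600 than at 120 min was Jund (12.3% of all genes). With all arrays, no other pair among the times 120 to 600 min was called for any of the 7. Without the pair that stood apart the counts of members lower were 4 at 240 against 30 min and 2 at 240 against 60 min. Among the times 120 to 600 min, Fosl1 was then lower at 240, 480 and 600 min than at 120 min, and Jund was no longer called. Shares over all genes without the pair are not given for these comparisons. Against 0 min, leaving the pair out raised the calls over all genes at 240 min from 610 to 1663. The comparisons with 30 min share its 3 arrays.

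A comparison that uses no 0 min array set the late times (mean of 360, 480 and 600 min) beside the early ones (mean of 30, 60 and 120 min). Jun fell by 0.55 ± 0.05 (7.80 late and 8.35 early, a 1.47-fold decrease, adjusted p = 1.57e-08), Fosl1 by 0.42 ± 0.07 (4.55 late and 4.97 early, 3.92e-05) and Fos by 0.24 ± 0.07 (3.87 late and 4.11 early, 0.00931). These 3 of 7 stand beside 19.4% of all genes called lower and 16.4% called higher. Junb was at -0.08 (adjusted p = 0.137), and the 95% intervals of Jund, Fosb and Fosl2 were -0.11 to 0.08, -0.07 to 0.06 and -0.13 to 0.16. Late and early arrays overlap for all 7. None of the 3 calls was lost when any 1 of the 24 arrays was left out, with the block, or without the pair that stood apart. Junb was called without replicate 3 of 30 min (-0.11, adjusted p = 0.0238).

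**Figure D3:**
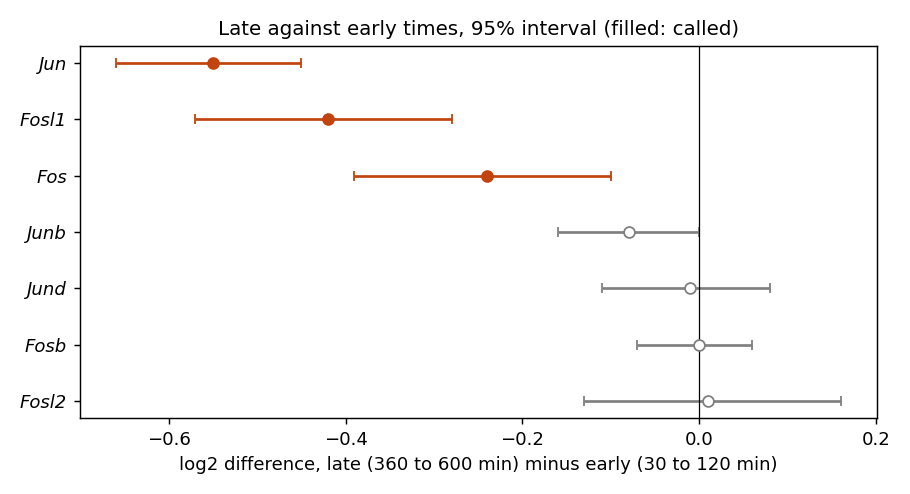
Log2 difference of late minus early times (horizontal axis; late is the mean of 360, 480 and 600 min, early that of 30, 60 and 120 min) for each of the 7 genes, with 95% intervals. Filled points were called. Jun, Fosl1 and Fos lie below 0 with intervals that exclude it.

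Likeness within the family was described by correlation over the 8 time means, which share arrays, processing and any drift with time. Fos and Junb had r = 0.92, Fosl1 and Jun 0.89, Jun and Junb 0.88 and Fos and Jun 0.82. The r of Jund with the others ran from -0.72 (Fosl2) to -0.17 (Fosl1), but Jund was not called by the F-test. With the time means taken away, its r ran from -0.20 (Fosl2) to 0.19 (Fos). After the time means were taken away, the 24 arrays gave r = 0.76 for Fos and Fosb, with replicate 2 of 30 min high for both. Fosl1 and Fosl2 gave 0.73. For these genes the pair that stood apart moved alike, and so did the 600 min arrays (4.70, 4.53 and 4.36 for Fosl1, 6.53, 6.26 and 5.97 for Fosl2). Among 2593 other genes whose time means spanned at least 0.5, those most like each member over the 8 times were named. For Jun they were Nppb (r = 0.986), the natriuretic peptide gene, Ccn1 (0.986), of a matrix protein, and Chac1 (0.983), a glutathione-degrading enzyme gene. For Fos they were Zfp36 (0.971), Mir145a (0.938) and the early gene Ier2 (0.909), and for Junb Phlda1 (0.972), the ERK phosphatase gene Dusp6 (0.948) and Plk3 (0.937). Fosl1 was closest to Ccdc174 (0.993), Pmaip1 (0.991) and Vipas39 (0.987). For Fosb, Fosl2 and Jund, which like Junb were not called by the F-test, the closest were Ptger4 (0.836), Rgs16 (0.775) and Errfi1 (0.722) for Fosb, Mid1ip1 (0.918), H4c4 (0.912) and H2bc18 (0.881) for Fosl2, and Rab7b (0.909), Rhou (0.835) and Hmox1 (0.804) for Jund. Over the 24 arrays these r were lower for every one, down to 0.312 for Rab7b and at most 0.971 for Nppb.

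Genes around AP-1 were looked at in 4 groups: partners that share the leucine zipper, the signalling that acts on Fos and Jun, factors of their turnover, and known AP-1 targets. Of 14 measured partners and relatives 4 were called by the F-test, near the 30.9% of all genes. With the block 3 were called, and without the pair that stood apart 5. Atf3, a stress-induced factor that pairs with Jun, stood at 5.96 ± 0.27 at 30 min and 5.36 ± 0.07 at 0 min (a difference of 0.60 with adjusted p = 0.618), and fell by 0.90 ± 0.17 at 600 min (4.46 ± 0.14, 0.000351). Mafk, a small Maf protein gene, fell by 0.79 (0.000382) and Atf2, a partner of Jun on its own promoter, by 0.51 (1.76e-06) at 600 min. Jdp2, which encodes a repressing partner of Jun, rose by 0.26 (0.0158), though its F-test call ended with the block (0.071). At 600 min 1 of 14 was higher and 3 lower (11.2% and 15.7% of all genes), with a median of 0.01, the same as over all genes. At 240 min limma called 0 of them (5 had an unadjusted p under 0.05). Without the pair that stood apart 4 were called lower, while calls over all genes in either direction rose from 610 to 1663.

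Of the 21 signalling genes measured 17 were called by the F-test, against 30.9% of all genes. This share, like those beside the other groups, covers genes of every level (median 4.35) and was not matched for level. The 6 signalling genes named below had 0 min means from 5.71 to 8.68, and the part of level in these counts was not tested. At 600 min 6 of the 21 were higher and 8 lower, against 11.2% and 15.7% of all genes (median 0.01). With the block 12 were called at 600 min in place of 14, and without the pair that stood apart 15. Over all genes these counts were 4824, 5370 and 5682. Without that pair 18 were called by the F-test. Srf, the serum response factor gene, whose product acts with Elk proteins at the Fos promoter, fell to 5.86 ± 0.16 at 360 min, against 6.74 ± 0.12 at 0 min (-0.88 ± 0.17, adjusted p = 0.000904). It was 0.57 lower at 600 min (0.0173). Mef2a, of a factor that binds MEF2 motifs such as that shown for Jun, fell by 0.63 (3.92e-07) and Mapk7, of the ERK5 kinase that acts on MEF2 factors, by 0.35 (0.0119) at 600 min. Map2k1, of the kinase MEK1 above ERK, rose by 0.56 (1.73e-07), Elk3, of an SRF partner, by 0.57 (9.61e-05) and Rps6ka5, of the kinase MSK1, by 0.32 (0.00476). None of these 6 was called at 30 or 60 min.

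Among 13 genes of turnover and cofactors 7 were called by the F-test (30.9% of all genes). At 600 min 2 were higher and 3 lower (median -0.01), near the 11.2% and 15.7% of all genes. With the block 4 were called at 600 min in place of 5 (over all genes 4824 in place of 5370). Without the pair that stood apart 8 were called by the F-test. Zfp36, whose protein destabilises AU-rich mRNAs such as that of Fos, was the only gene of the 4 groups called at 30 min (6.47 ± 0.29 at 30 min and 5.83 ± 0.07 at 0 min, 0.64 ± 0.10, adjusted p = 0.0358), a call that ended with the block (0.112). At 600 min Gsk3b, of a kinase that marks c-Jun for destruction, fell by 0.40 (1.73e-06) and Fbxw7, of the ubiquitin ligase subunit that then binds it, by 0.28 (0.000763). Zfp36l1, a relative of Zfp36, rose by 0.48 (0.000309) and Khsrp, of another decay factor, by 0.39 (0.00428). Det1, of a ligase complex for c-Jun, was at -0.17 at 600 min (0.167). It was called lower at 360 min (-0.25, 0.0437) and 480 min (-0.27, 0.0226), at 360 min not with the block (0.068).

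Known AP-1 targets were called lower more often than higher late. Of 31 measured, limma called 0 at 30, 60 or 120 min, with 4, 1 and 10 of them at an unadjusted p under 0.05. It called 2 higher and 1 lower at 240 min (0.366% and 2.69% of all genes) and 2 higher and 11 lower at 360 min (8.47% and 10.5%). At 480 min 2 were higher and 12 lower (9.73% and 14.5%), at 600 min 2 higher and 16 lower (11.2% and 15.7%). With the block 12 targets were called in place of 13 at 360 min, 14 as before at 480 min and 16 in place of 18 at 600 min. Without the pair that stood apart the counts were 14, 16 and 19. The median difference of the targets at 600 min was -0.18, against 0.01 over all genes. At 240 min the count was 0 with the block and 2 higher and 4 lower without the pair that stood apart. Calls over all genes at 240 min were 610, with the block 356 and without the pair 1663. Without that pair Ptgs2 was called at 60 min (adjusted p = 0.0372). Ptgs2, the inducible cyclooxygenase gene, stood at 10.52 ± 0.28 at 60 min and 9.81 ± 0.07 at 0 min (a difference of 0.71 with adjusted p = 0.231), and fell by 0.88 ± 0.15 at 600 min (8.94 ± 0.18, 0.000177). Gja1, of the main gap junction protein of fibroblasts, fell by 1.18 (1.41e-07), Mt1, a metallothionein gene, by 0.63 (1.22e-08), Timp1, of a metalloprotease inhibitor, by 0.57 (2.25e-06) and Ccnd1, of cyclin D1, by 0.53 (8.04e-05). Ccl2, a chemokine gene, rose by 1.10 (6.87e-07), to 8.51 ± 0.09 at 600 min, against 7.41 ± 0.14 at 0 min. Over the same times the 8 fibroblast markers had 3 called higher and 0 lower at 600 min (median 0.17), whose part in these counts was not tested. Protein levels and DNA binding of AP-1 were not measured on these arrays.

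**Figure D4:**
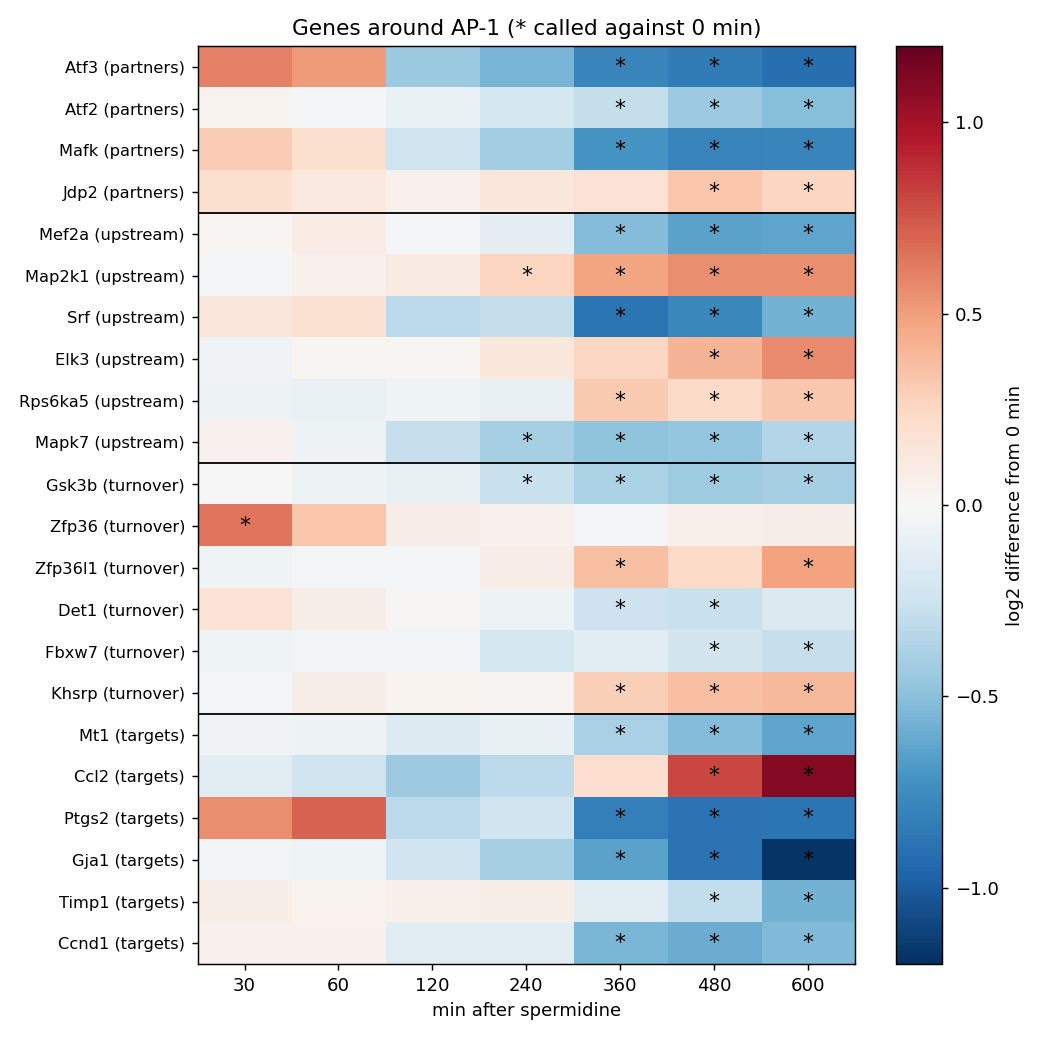
Log2 difference from 0 min (colour, red higher and blue lower) of the named genes of the 4 groups (rows) at each time after spermidine (columns, in minutes). Stars mark calls. Zfp36 alone is starred at 30 min, and the stars gather from 360 min on, with Gja1 lowest (-1.18) and Ccl2 highest (1.10) at 600 min.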

How the data were processed

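The deposited table holds 1 RMA value per probe set and array, made by the authors with Partek, per the submitters' processing notes; software versions are not given in the sources used here. That the deposited values are log2 is inferred from their range, and no other transformation was applied. RMA can compress changes of dim probe sets. Of 35399 probe sets, 21789 carried 1 gene symbol by the platform annotation, and the highest-mean one per gene gave 19938 genes.

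A model with 1 mean per time was fitted with limma 3.58.1 in R 4.3.3 (16 residual and 3.48 prior degrees of freedom), with two-sided tests of all 28 pairs of times, of late against early times, and an F-test, adjusted by Benjamini-Hochberg within each comparison. The median 95% half-width of a difference was 0.118. The script was tested on simulated data.

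The members, gene lists and tests were chosen with earlier results of these data known. Named were the 7 members, up to 6 genes per list by the F-test, the 3 most correlated genes per member, and Egr1. The 91 symbols without a RefSeq match were kept as given. Same-numbered samples' deviations correlated from -0.533 to 0.182, over 0.1 in 4 of 84 pairs, but the replicate effect removed before deposit pushes these below 0, so whether the numbers pair the samples could not be checked. The block was kept as an alternative. Alternatives were a replicate block, left-out arrays, 2-time fits, a filter on dim genes, averaged probe sets, renewed quantile normalization and a trended robust prior.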

Additional observations from a re-analysis of the deposited data

How the results depend on the processing

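Of 9 member differences called against 0 min or late against early, none changed direction in 176 recomputations, and 167 of these kept the call. Of 703 recomputed values of uncalled differences, 13 became calls and 38 changed sign while staying uncalled. A filter for genes above the median level (4.35) leaves out Fos (mean 3.95), Fosb (4.17) and Junb (4.2). With it 2 members in place of 3 were called by the F-test and late against early. Without replicate 3 of 30 min both counts were 4, and the trended robust prior gave 4 by the F-test; the other alternatives gave 3. At 60 min every alternative gave 0. With the 2 arrays that lay away from their time left out, 1 member was called at 30 min (Jun), 2 at 240 min and 2 at 360 min (Jun and Fosl1), the last counts also with the replicate block; the cause was not tested. With the replicate block alone, the counts against 0 min were 0, 0, 0, 1, 1, 2 and 2, as without it; it ended only calls between later times, of Junb, Jund and Fosl1, given with them. At 120 min 1 member, Jun, was called among genes above the median level, after renewed quantile normalization (adjusted p = 0.0416) and with the trended robust prior (0.0418). At 360 min 2 were called among genes above the median level. The fit to the arrays of 2 times called 0 at 240 min. Leaving out 1 array gave 0 to 1 members at 30 min, 0 to 2 at 240 min, 1 to 2 at 360 min, 1 to 2 at 480 min and 0 to 2 at 600 min. Averaging probe sets changed no count, each member having 1. The cause of these changes was not tested either. Over all genes, counts of calls without a block, with it, and with those 2 arrays left out were 3, 0 and 8 (30 min), 5, 2 and 11 (60 min), 94, 40 and 47 (120 min) and 610, 356 and 1663 (240 min). Later they were 3792, 3267 and 4108 (360 min), 4834, 4344 and 5115 (480 min) and 5370, 4824 and 5682 (600 min). The list counts of AP-1 targets late, run after the data were seen, stayed within 1.5 times of theirs. Renewed normalization moved the median of all genes by at most 0.0169. The number of arrays, 3 per time, limits the precision.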
